A study of Mus musculus with 6 samples.

Results

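The chromatin around 9 genes that encode the NF-kB transcription factors and their main inhibitors was examined in mouse haematopoietic stem cells (HSCs) from bone marrow. The assay was ATAC-seq, in which a transposase tags open DNA. The subunit genes were Rela, Rel, Relb, Nfkb1 and Nfkb2, and the genes of inhibitors and regulators were Nfkbia, Nfkbiz, Bcl3 and Tnfaip3. The genes were taken by name, and their regions were all accessible intervals inside the RefSeq gene or within 50 kb of it, 129 of 82993 in the whole series. No region belonged to more than 1 of the 9 loci. HSCs were sorted as CD48-CD150+LSK cells, LSK meaning negative for lineage markers and positive for Sca-1 and c-Kit. The tunicamycin group held 3 libraries from wild-type C57BL/6J animals given 2 mg/kg of tunicamycin into the peritoneum. The DMSO group, also 3 libraries, came from wild-type C57BL/6J animals given DMSO by the same route. Both groups used about 5000 cells a library, and the sources used here do not give the age of the mice or the time between injection and sorting. Tunicamycin blocks N-linked glycosylation of proteins in the endoplasmic reticulum and so causes endoplasmic reticulum stress.

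NF-kB proteins are dimers that share a DNA-binding Rel homology domain. In resting cells inhibitors of the IkB family hold most dimers in the cytoplasm, and IkB kinases release them after signals such as TNF, Toll-like receptor ligands or, in several cell types, endoplasmic reticulum stress. Several of the genes that encode inhibitors are themselves NF-kB targets, which forms a negative feedback loop, and in the bone marrow NF-kB signalling is known to affect HSC maintenance and inflammatory responses.

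The deposited data were 1 list of accessible peaks per library, and a peak's fold enrichment is the authors' own value. The tunicamycin lists held 44952, 56865 and 47789 peaks, and the DMSO lists held 62478, 38217 and 28501. Such lists leave read depth unknown, so a region without a call cannot be told apart from a region missed in a shallower library. The labels do not say whether libraries of a group were taken from separate animals. The p-values therefore reflect the spread among these 6 libraries alone, and that spread may be technical. The sorted phenotype was checked with marker genes. A region called in all 6 libraries lay inside or within 1 kb of 6 of 10 HSC markers, Kit, Procr, Mecom, Hlf, Meis1 and Gata2. Slamf1, which encodes CD150, and Ly6a, which encodes Sca-1, had none, nor did Fgd5. Of 10 markers of lineages left out by the sort, such as Cd3e and Cd4, 0 had one.

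To see whether the promoters of these genes hold NF-kB motifs, and where the peaks lie relative to them, the RefSeq starts were searched first. All coordinates are mm10. RefSeq promoter windows of GRCm38.p6, the assembly that mm10 denotes, run from 250 bases before to 50 after a start. Windows existed here for 6 genes, 9 windows in all, with 3 for Nfkb2 and 2 for Tnfaip3. Below, a gene's start, or its first start, is the first that has a window. Entries were not found for Nfkb1, Relb and Nfkbiz. The stretches before the starts of Nfkbia, Tnfaip3 and Rel are shown because each holds the NF-kB consensus, in capitals, inside a peak of all 6 libraries. They are written 5′ to 3′ on the minus strand, which is the strand of these 3 genes.
Nfkbia, chr12:55492648-55492897, minus strand: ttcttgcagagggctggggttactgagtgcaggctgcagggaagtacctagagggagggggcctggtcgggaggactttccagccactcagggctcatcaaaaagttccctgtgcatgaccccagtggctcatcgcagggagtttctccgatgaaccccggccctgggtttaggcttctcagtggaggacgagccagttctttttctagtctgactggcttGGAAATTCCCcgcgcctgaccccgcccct
Tnfaip3, chr10:19015411-19015660, minus strand: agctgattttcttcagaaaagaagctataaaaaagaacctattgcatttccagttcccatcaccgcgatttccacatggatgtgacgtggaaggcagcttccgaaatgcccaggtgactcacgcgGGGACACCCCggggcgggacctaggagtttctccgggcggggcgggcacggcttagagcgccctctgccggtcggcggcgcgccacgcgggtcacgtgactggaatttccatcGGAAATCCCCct
Rel, chr11:23770970-23771219, minus strand: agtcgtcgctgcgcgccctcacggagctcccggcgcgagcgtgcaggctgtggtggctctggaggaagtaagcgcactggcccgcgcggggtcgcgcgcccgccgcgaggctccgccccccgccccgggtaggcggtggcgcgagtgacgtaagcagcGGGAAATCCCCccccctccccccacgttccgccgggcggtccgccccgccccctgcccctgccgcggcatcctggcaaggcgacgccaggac

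Nfkb2 and Bcl3 had the consensus within the gene span, and only the site with its flanks is shown, again with the match in capitals. The letters of the 4 sites of Nfkb2 are written on the plus strand and those of Bcl3 on the minus strand, the strands of the genes; a match could be on either strand.
Nfkb2 site 1, chr19:46304689-46304717, plus strand: gatcgtcacGGGAATTCCCCccctcgggg
Nfkb2 site 2, chr19:46304716-46304745, plus strand: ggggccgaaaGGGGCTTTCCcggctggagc
Nfkb2 site 3, chr19:46305449-46305478, plus strand: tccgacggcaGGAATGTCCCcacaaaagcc
Nfkb2 site 4, chr19:46305695-46305724, plus strand: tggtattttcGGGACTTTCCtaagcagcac
Bcl3, chr7:19822734-19822763, minus strand: tcggcggcagGGGAAGTCCCgctgcccggc

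The NF-kB consensus was found in 7 of the 9 windows (77.8%), those of Nfkb2, Rel, Nfkbia, Tnfaip3 and Bcl3, and in 4.51% of all 32851 RefSeq promoter windows of the mouse. Windows 2 and 3 of Nfkb2 overlap and share site 4, the only match in window 3. The consensus was searched on both strands as the NF-kB consensus of 10 letters, and overlapping matches were merged. Windows that shared sequence with an accessible region of all 6 libraries held it in 5.12% of 10601 cases, and the other windows in 4.21% of 22250. The match is a description of letters and no measurement of binding. The window of Rela held no match to these letters. The AP-1 motif TGANTCA was in 2 of the 9 windows and in 7.81% of all windows, and the CCAAT box was in 1 of 9 and in 37.4%. The shorter motif TGACGT, which CREB and ATF factors bind, was in 2 of 9 and in 7.51%, and the composite ATF4 and CHOP motif TGATGNAAT was in 0 of 9 and in 0.965%.

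After merging, the matches made 9 sites in 5 genes, and 7 of the 9 lay inside a peak in every library. The exceptions were Nfkb2 site 3, inside a peak in 2 libraries, both of the tunicamycin group, and the site of Bcl3, inside a peak in 5 libraries and not in DMSO replicate 3. Summits, the positions of highest signal in a peak, were placed most tightly at Rela and Nfkb2. At Rela they lay at -125, -124 and -124 bp from the start after tunicamycin and at -125, -128 and -146 bp after DMSO. At the first start of Nfkb2 they lay at -126, -150 and -149 bp after tunicamycin and at -144, -139 and -150 bp after DMSO, between 92 and 143 bp from sites 1 and 2. In the next region of Nfkb2 the summits lay 40 to 63 bp from site 4. At Tnfaip3 the summits lay at -45, 90 and -52 bp after tunicamycin and at 87, -33 and 43 bp after DMSO, and the nearer site was 25 to 97 bp away. At Rel the summits scattered over 630 bp among the 6 libraries. At Nfkbia they lay at 705, 7 and 8 bp after tunicamycin and at -133, 8 and 22 bp after DMSO. That is a range of 838 bp, with tunicamycin replicate 1 far from the other libraries. Over the 54 regions at the 9 loci called in all 6 libraries the median range of the summit was 104 bp, and over all 20810 such regions of the genome it was 70.0 bp.

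**Figure D1:**
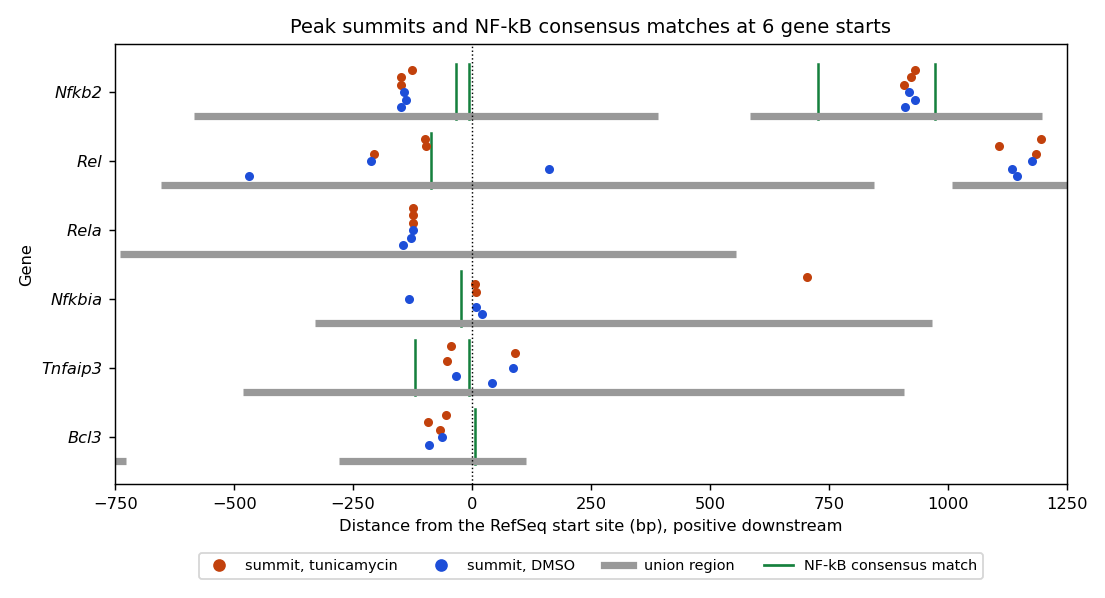
Peak summits around the RefSeq starts of 6 genes, with distance from the start in bp on the horizontal axis and the genes down the page. Points are single libraries (tunicamycin above DMSO), grey bars are union regions and green lines are NF-kB consensus matches; summits at Rela span 22 bp and at the first start of Nfkb2 24 bp.

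At each of the 9 loci, accessible regions were called in HSCs of both groups. Of the 129 regions, 54 (41.9%) were called in all 6 libraries, against 25.1% of all regions in the genome and 26.7% of the 73073 regions inside or within 50 kb of a protein-coding gene. Another 32 regions (24.8%) were called in a single library, against 32.4% of all regions. Regions of all 6 libraries had a median width of 792 bp (311 to 1651), and those of a single library 238 bp (200 to 412). A region spans the merged peaks of all its libraries, so peaks from more libraries can only widen it. All 9 genes had a region of all 6 libraries inside them or at most 1 kb away, which held for 54.4% of 21887 protein-coding genes.

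Tunicamycin libraries called 83, 97 and 81 of the 129 regions, and DMSO libraries called 104, 73 and 60. The means were 87.0 ± 8.72 and 79.0 ± 22.6 (SD, n = 3 each), and the groups overlapped, since DMSO replicate 1 called more and DMSO replicates 2 and 3 fewer regions than any tunicamycin library. The order of the libraries was close to that over all regions, with tunicamycin replicates 1 and 3 in exchanged places. Libraries called 52.6%, 67.2% and 55.7% of all regions after tunicamycin and 73.6%, 44.5% and 33.3% after DMSO. At the 9 loci the shares were higher in each library, at 64.3%, 75.2% and 62.8% after tunicamycin and 80.6%, 56.6% and 46.5% after DMSO.

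**Figure D2:**
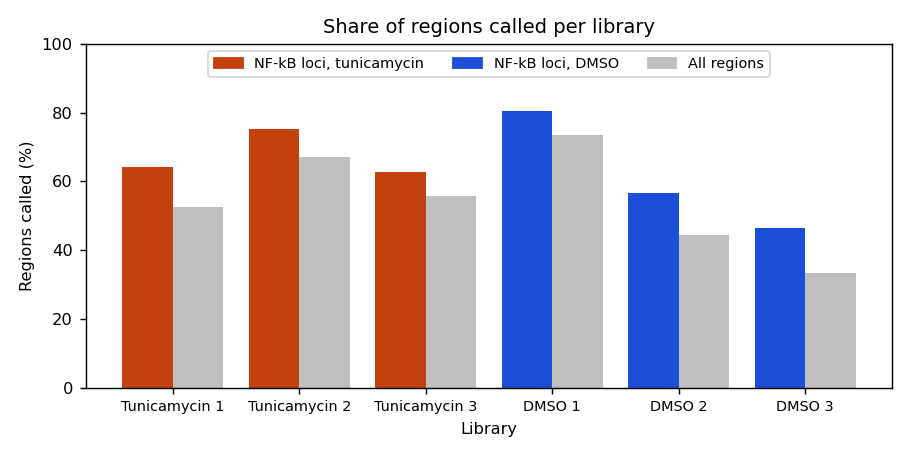
Percent of the 129 regions at the 9 loci (coloured bars) and of all 82993 regions (grey bars) called in each library, with tunicamycin left of DMSO. The coloured bar is above the grey bar in each of the 6 libraries, and the DMSO libraries hold both the highest and the lowest share.

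With every call of the 6 full lists counted, calls did not separate the groups at any of the 9 loci. Of the 129 regions, 0 had a call from all 3 tunicamycin libraries and from no DMSO library, a pattern that 0.683% of all regions had (567 of 82993). The reverse pattern, all 3 DMSO libraries and no tunicamycin library, also held 0 of the 129, against 0.0976% of all regions (81). Every tunicamycin library and, of the DMSO libraries, replicate 1 alone called 5 regions (3.88%), placing them 1 call away from the first pattern. Over all regions 4.39% had those calls. The 5 were Nfkb1 region 2, Nfkbia region 6 and Nfkbiz regions 3, 8 and 13, numbered by coordinate within each locus. DMSO replicate 1 was the library with the most peaks. Without DMSO replicate 1 these 5 regions (4.31%) had calls in the tunicamycin group only, as did 5.77% of all regions. Over all libraries left out in turn the number ran from 0 to 5. Also 1 call away from the first pattern were 4 of the 129 called in tunicamycin replicates 2 and 3 alone, against 1.49% of all regions. Tunicamycin replicates 1 and 2 alone called 2, against 0.800%. On the side of the reverse pattern, DMSO replicates 1 and 2 alone called 1 region, against 0.807%. DMSO replicates 1 and 3 alone called 1, against 0.237%. With lists of equal length 2 regions (2.56%) had calls in all 3 tunicamycin libraries and no DMSO library, against 0.790% of all regions. When calls had to cover 50% of a region, 2 regions (1.55%) had that pattern, against 0.833% of all regions. Of 84 regions called in at least 2 tunicamycin libraries, 67 (79.8%) were called in at least 2 DMSO libraries, and these were 93.1% of the 72 such DMSO regions. Over all regions the same shares were 72.9% and 90.6%.

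**Figure D3:**
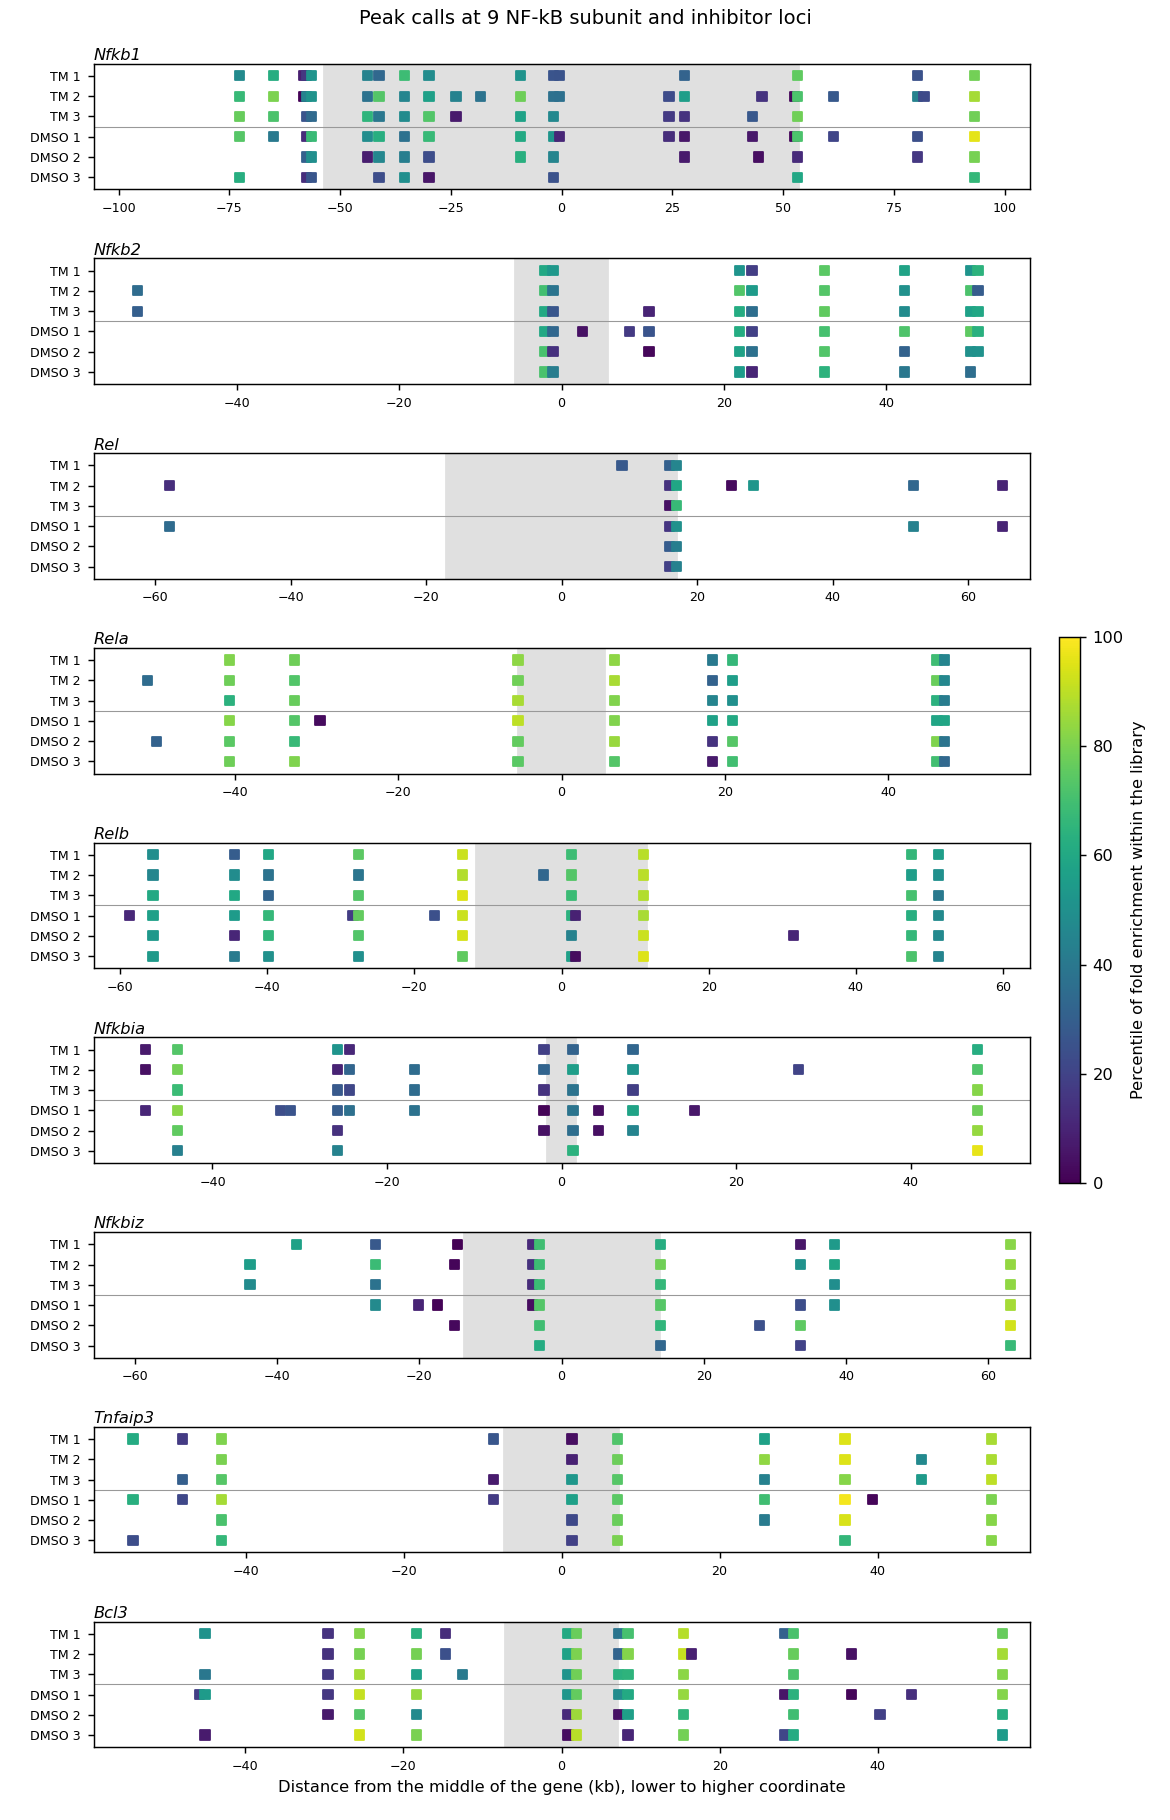
Regions called at each of the 9 loci by library, with distance from the middle of the gene in kb on the horizontal axis, the gene span shaded, and tunicamycin (TM) rows above DMSO rows. Colour gives the percentile of fold enrichment within the library's list; columns of 6 squares are the 54 regions called in every library.

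For each region the fold enrichment was placed as a percentile among all peaks of its own list. Lists differ in length, so these percentiles describe a region's standing within its library and show no change between groups. Regions of all 6 libraries stood lower at the 9 loci than in the genome, in each list. Their median percentile at the loci was 66.3, 71.9 and 65.7 after tunicamycin and 67.4, 63.7 and 55.4 after DMSO. In the genome it was 75.1, 79.4 and 76.1 after tunicamycin and 80.3, 71.0 and 62.5 after DMSO. To compare groups, the 20810 regions called in all 6 libraries were ranked against each other within each library, and the ranks were compared with limma over all of them with Benjamini-Hochberg adjustment. By limma, 0 of the 20810 regions passed an adjusted p of 0.05 in either direction (0%), and 0 of the 54 at the 9 loci did. At an unadjusted limma p below 0.05 there were 883 regions in the genome (4.24%) and 4 at the 9 loci (7.41%). The smallest adjusted p by limma was 0.691 in the genome and 0.996 at the 9 loci. The exact permutation test over 3 against 3 libraries, two-sided, cannot give a p below 0.100.

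Among the activating subunits, Rela encodes p65, the transactivating partner of the most common dimer, and its start was open in every library (chr19:5636802-5638095). The percentile was 83.0, 78.2 and 87.0 after tunicamycin and 89.9, 75.8 and 74.5 after DMSO. The groups overlapped in percentile and in rank. The rank percentile averaged 61.1 ± 12.0 after tunicamycin and 64.9 ± 7.21 after DMSO (SD, n = 3 each), a difference of -3.84 percentage points that was 2.80 without tunicamycin replicate 2 and 2.34 when −log10 q was ranked. At 0.568 kb beyond the other end of Rela lay its region of highest mean percentile (chr19:5648702-5649813), with 83.1, 87.0 and 81.1 after tunicamycin and 81.0, 84.4 and 73.2 after DMSO. Of 11 regions at the locus 8 were called in all 6 libraries, and just 1 of the 11 lay inside the gene. Kat5, Sipa1 and Map3k11, neighbours of Rela, overlapped several of the rest.

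Rel encodes c-Rel, a subunit best known for its part in lymphocytes, and its locus held the fewest regions, 8. The start lay in a region (chr11:23770123-23771623). Its percentile was 45.7, 59.2 and 67.3 after tunicamycin and 50.1, 42.5 and 43.7 after DMSO. Ranked among the regions of all 6 libraries it stood at 16.5, 21.1 and 36.5 after tunicamycin and at 13.6, 19.0 and 29.7 after DMSO, with the groups overlapping. The rank percentile differed by 3.89 percentage points (24.7 ± 10.5 after tunicamycin and 20.8 ± 8.21 after DMSO, SD, n = 3 each), and by -1.90 without tunicamycin replicate 3. Rel region 3, inside the gene, was the only other one called in all 6 libraries. The region of highest mean percentile, Rel region 6, was called in tunicamycin replicate 2 alone, at a percentile of 52.4.

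Relb encodes the subunit of the non-canonical pathway, which pairs mainly with p52. The reference used gives no strand for Relb, Nfkb1 and Nfkbiz, so at these genes the end of higher mean percentile is given. For Relb this was chr7:19628231-19629627, which was also the region of highest mean percentile at the locus. It reached 89.3, 89.8 and 88.4 after tunicamycin and 86.9, 91.9 and 94.9 after DMSO, the highest of the 9 gene ends in each group mean. Its fold enrichment ran from 9.76 to 10.1 after tunicamycin and from 9.98 to 10.4 after DMSO. Near the other end of Relb, 1.50 kb outside it and within Clasrp, region 8 had percentiles of 91.8, 88.6 and 94.6 after tunicamycin and 92.1, 93.7 and 75.7 after DMSO. Of 15 regions 9 were called in all 6 libraries.

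Nfkb1 encodes p105, which is processed to the DNA-binding p50 and can itself act as an inhibitor. With 107 kb it was the longest of the 9 genes, and it had 25 regions, 16 of them inside the gene and 8 called in all 6 libraries. The region at its end (chr3:135691288-135691883) had percentiles of 75.7, 71.6 and 78.2 after tunicamycin and 71.7, 11.8 and 59.5 after DMSO. DMSO replicate 2 stood far below the other 5 libraries. The rank percentile was 47.0 ± 9.34 after tunicamycin and 28.3 ± 22.3 after DMSO (SD, n = 3 each), a difference of 18.7 points (two-sided exact permutation p = 0.200), of 6.17 points without DMSO replicate 2 and of 32.4 without DMSO replicate 3. The region of highest mean percentile lay 39.3 kb outside the gene (chr3:135731302-135731677), with 78.8, 86.7 and 78.3 after tunicamycin and 96.0, 79.5 and 66.5 after DMSO, where the DMSO libraries spanned the tunicamycin ones.

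Nfkb2 encodes p100, an inhibitor whose processing yields p52. The gene span begins at chr19:46300994, upstream of every start with a window, and no region was called there. Its first RefSeq start with a window (chr19:46304152-46305128) had percentiles of 59.9, 69.6 and 60.4 after tunicamycin and 59.9, 70.9 and 71.1 after DMSO. The rank difference was -13.7 points (30.1 ± 2.99 after tunicamycin and 43.8 ± 20.8 after DMSO, SD, n = 3 each), within the spread of the DMSO libraries. It was -3.66 without DMSO replicate 3 and -25.2 without DMSO replicate 1. Nfkb2 region 3, over the other 2 starts, had 53.4, 38.6 and 26.7 after tunicamycin and 33.0, 13.7 and 41.8 after DMSO. The highest mean percentile was 25.9 kb outside the gene, in a region of 1651 bp that overlaps Cuedc2, with 74.4, 73.3 and 75.6 after tunicamycin and 70.7, 72.7 and 64.3 after DMSO.

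Among the inhibitors, Nfkbia encodes IkB-alpha, which retains NF-kB dimers in the cytoplasm and is resynthesised after activation. The region over its start (chr12:55491681-55492978) had percentiles of 31.3, 55.8 and 38.0 after tunicamycin and 38.4, 35.9 and 63.7 after DMSO, and the groups overlapped. Its rank percentile was 12.4 ± 5.17 after tunicamycin and 24.6 ± 23.6 after DMSO (SD, n = 3 each), a difference of -12.2 points that was 2.15 without DMSO replicate 3. The most enriched region of the locus was 45.7 kb outside the gene (chr12:55538338-55538945), with 62.4, 72.3 and 81.9 after tunicamycin and 78.1, 84.2 and 96.2 after DMSO. Ranked among the regions of all 6 libraries it stood at 31.4, 37.5 and 60.6 after tunicamycin and at 45.7, 71.5 and 94.7 after DMSO. Two-sided exact permutation gave p = 0.200 for the difference of -27.4 points, the lowest of the 54 regions, and limma with Benjamini-Hochberg adjustment gave 0.996. Without DMSO replicate 3 the difference was -13.2 points. All 4 regions of the Nfkbia locus called in all 6 libraries had a negative difference, with each pair of groups overlapping.

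Nfkbiz encodes IkB-zeta, a nuclear member of the family that modulates transcription of selected targets. The region at its end (chr16:55838513-55839512), 0.441 kb from Nxpe3, had percentiles of 62.2, 78.4 and 66.6 after tunicamycin and 73.7, 65.4 and 33.1 after DMSO. Its rank percentile was 38.3 ± 8.90 after tunicamycin and 33.4 ± 11.8 after DMSO (SD, n = 3 each), and the groups overlapped. Inside the gene, region 9 was the steadiest after tunicamycin, at 69.3, 68.6 and 68.1, with 73.1, 69.3 and 61.4 after DMSO. Of 14 regions only 3 were called in all 6 libraries, and the third, 48.9 kb away in Nxpe3, had the highest mean percentile (82.4, 83.9 and 83.3 after tunicamycin, 86.6, 93.3 and 67.2 after DMSO).

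Tnfaip3 encodes A20, a ubiquitin-editing enzyme that ends signalling upstream of the IkB kinases. Its first start (chr10:19014502-19015891) had percentiles of 72.4, 77.5 and 73.7 after tunicamycin and 74.6, 77.0 and 80.0 after DMSO (SD 2.68 and 2.71, n = 3 each). The rank percentile there was 46.0 ± 0.467 after tunicamycin and 57.3 ± 16.6 after DMSO (SD, n = 3 each), and the groups overlapped. That difference was -11.2 points (two-sided exact permutation p = 0.400), -2.06 without DMSO replicate 3 and -19.9 without DMSO replicate 1. The other RefSeq start of Tnfaip3 was the only one of the 9 windows without a region in any library. The highest mean percentile was 28.2 kb outside the gene (chr10:19043648-19044443), with 94.8, 94.7 and 81.8 after tunicamycin and 98.3, 93.8 and 66.1 after DMSO. Fold enrichment there was 11.2, 11.6 and 8.64 after tunicamycin and 14.4, 10.5 and 6.19 after DMSO. The 14.4 of DMSO replicate 1 was the highest of the 54 regions called in all 6 libraries, and the 6.19 of DMSO replicate 3 the lowest of these 6. Of 11 regions 5 were called in all 6 libraries.

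Bcl3 encodes a nuclear IkB protein that binds p50 and p52 dimers and can turn them into activators. Its start region, unlike the regions given above at the first start or end of the other 8 genes, was not called in every library. The region (chr7:19822641-19823035) had percentiles of 38.9, 31.9 and 63.5 after tunicamycin and 47.7 and 4.58 in DMSO replicates 1 and 2, and it was not called in DMSO replicate 3. The locus held 19 regions, 8 of them called in all 6 libraries.

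**Figure D4:**
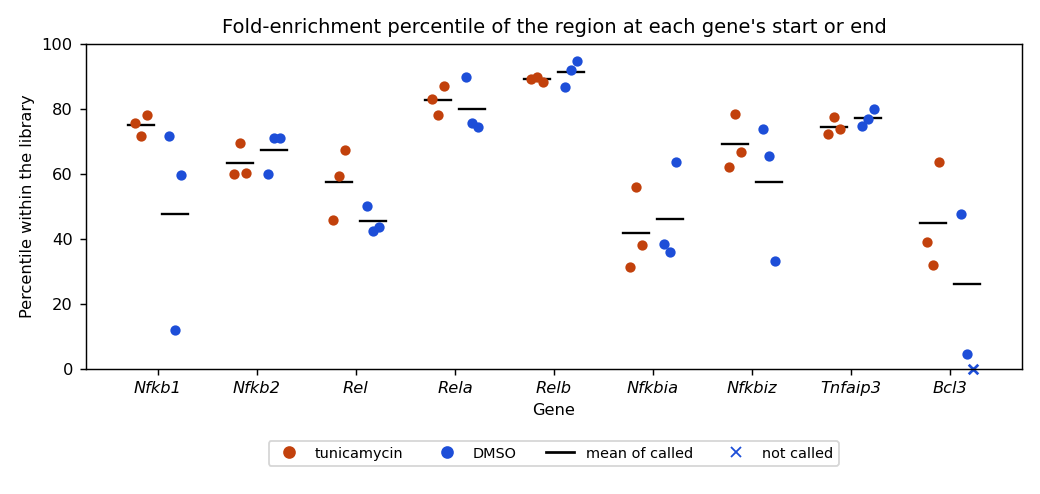
Percentile of fold enrichment, within each library's list, of the region at each gene's start (at the end of higher mean percentile for Nfkb1, Relb and Nfkbiz), tunicamycin left of DMSO. Points are libraries, bars are means of the libraries that called the region and the cross marks no call. The plotted values of the groups overlap at all 9 genes, and at Bcl3 DMSO replicate 3 has no value. Lists differ in length, so these values are no comparison of the groups.

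Among the 54 regions, all 3 whose tunicamycin ranks lay above every DMSO rank belonged to Bcl3. Over all ranked regions 4.66% had that pattern, and at the 9 loci 5.56%. In Bcl3 region 11, 0.659 kb outside the gene next to its start (chr7:19823483-19824579), the rank percentile was 42.9, 54.2 and 33.4 after tunicamycin and 21.1, 31.0 and 4.99 after DMSO. The difference was 24.5 points (two-sided exact permutation p = 0.100), the highest of the 54. Bcl3 region 8, inside the gene (chr7:19815988-19816903), had 29.1, 19.2 and 19.5 after tunicamycin and 14.6, 3.22 and 1.56 after DMSO, a difference of 16.1 points that was 36.3 when −log10 q was ranked and 10.0 with lists of equal length. Bcl3 region 19, 48.2 kb away in Ceacam16 (chr7:19871027-19871703), had 52.5, 65.3 and 59.5 after tunicamycin and 52.3, 38.1 and 40.5 after DMSO, a difference of 15.4 points. The 52.3 of DMSO replicate 1 stood just under the 52.5 of tunicamycin replicate 1. By limma with Benjamini-Hochberg adjustment the 3 had an adjusted p of 0.996. Only region 19 was called in all 6 libraries when peaks were limited to a −log10 q of at least 5, and then its groups overlapped. The other 5 Bcl3 regions of all 6 libraries had overlapping groups, with differences from -15.6 to 14.6 points.

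The reverse pattern, tunicamycin ranks below every DMSO rank, was found in 1 of the 54 regions (1.85%) and in 4.55% of all ranked regions. It was Rela region 11, 41.2 kb away in Map3k11 (chr19:5689382-5689977). Its rank percentile was 16.0, 11.5 and 12.9 after tunicamycin and 20.1, 16.5 and 20.4 after DMSO, a difference of -5.53 points (two-sided exact permutation p = 0.100). With 1 library left out, when fewer libraries have to be separated, 3 to 9 of the regions ranked above every DMSO library, the 9 without DMSO replicate 3 (14.3%, against 10.3% of all regions ranked then). Likewise 2 to 15 ranked below, the 15 without DMSO replicate 1 (27.8%, against 16.3%).

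Over the 54 regions the rank difference was positive in 17 and negative in 37, with a median of -3.71 points and a range of -27.4 to 24.5. Over all 20810 regions it was positive in 10070 and negative in 10733, with a median of -0.304 and a range of -49.5 to 55.2. The median rank percentile of the 54 was 36.5, 36.9 and 34.4 after tunicamycin and 29.0, 40.1 and 41.7 after DMSO, so the groups overlapped, with DMSO replicate 1 lowest. Bcl3 had the highest median difference of the 9 loci, 9.12 points over 8 regions, and Nfkbia the lowest, -7.78 over 4.

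**Figure D5:**
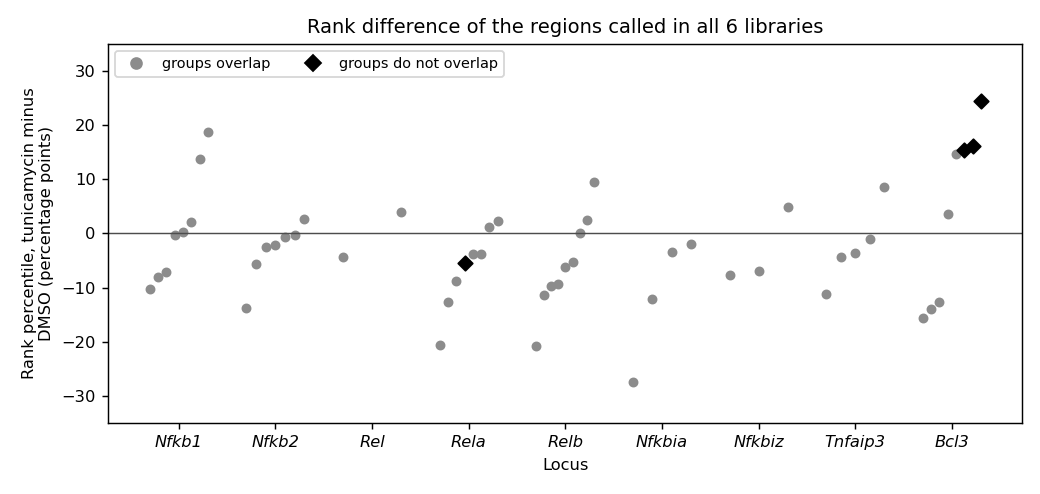
Difference in mean rank percentile, tunicamycin minus DMSO in percentage points, of each of the 54 regions called in all 6 libraries, by locus. Diamonds are the regions whose groups do not overlap, 3 at Bcl3 above 0 and 1 at Rela below it; the differences run from -27.4 to 24.5 points.

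The rest of the pathway was open in most cases too. Of 68 other genes of NF-kB signalling, 59 (86.8%) had a region of all 6 libraries inside or within 1 kb, against 54.4% of protein-coding genes. By role these were 21 of 24 kinases and adaptors, 15 of 16 other inhibitors and regulators, all 10 receptors and 13 of 18 target genes. Chuk, Ikbkb and Ikbkg, which encode the subunits of the IkB kinase complex, had one, and so did the inhibitors Nfkbib and Nfkbie and the receptor gene Tnfrsf1a. Among the targets, Cxcl1, Cxcl2, Il1b, Vcam1 and Bcl2a1b, genes of chemokines, a cytokine, an adhesion molecule and a survival factor, had none. Of 818 regions inside or within 50 kb of these 68 genes, 258 (31.5%) were called in all 6 libraries. The share was 25.1% of all regions and 26.7% of those inside or within 50 kb of a protein-coding gene.

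These genes held 4 regions called in all 3 tunicamycin libraries and no DMSO library (0.489% of the 818), against 0.683% of all regions, and 0 of the reverse. Ikbke, a kinase related to the IkB kinases, had one at 49.8 kb (chr1:131204475-131204829) with percentiles of 6.91, 0.744 and 1.05 after tunicamycin. N4bp1, a suppressor of NF-kB signalling, had one at 32.3 kb (chr8:86808280-86808812) with percentiles of 4.93, 3.68 and 24.9 after tunicamycin. Both stood low in at least 2 of the 3 tunicamycin lists, and 0 DMSO libraries called them.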

How the data were processed

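ATAC-seq peak lists of 6 HSC libraries were used, 3 per group as the labels' treatment field gives it, 1 list per library. Per the submitters' processing notes, MACS2, Picard, featureCounts, Bowtie2 2.2.9 and Trim Galore 0.4.4 were used with build mm10. The sources used here do not give their roles and settings, nor any shift of read ends for the transposase. The authors deposited for each peak a fold enrichment (a ratio over background) and a −log10 q-value, and the offset of its summit. The largest q per list was 0.0482 to 0.0500. Read depth is unknown.

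Peaks on chromosomes 1 to 19, X and Y that overlapped by at least 1 bp were merged into 82993 regions, as bedtools 2.31.1 also gave. A region took the highest fold of its peaks in a library. Percentiles ran over all peaks of a list, and rank percentiles over the 20810 regions called in all 6 libraries. Normal scores of these ranks were compared with limma 3.58.1 (R 4.3.3, trend) with Benjamini-Hochberg adjustment, which was tested on simulated data, and each named region also by two-sided exact permutation over 20 splits. The simulated noise was independent for each region and library, so it does not cover deviations that many regions of a library share. Gene spans, starts and sequences came from RefSeq tables for GRCm38.p6, in which all 9 genes and all 68 other pathway genes matched. Named regions were those at the start, those of highest mean percentile, those called in 1 group only and up to 3 per locus without overlap in rank; Relb region 8, Nfkbiz region 9, Nfkb2 region 3 and Rel region 3 were added as examples after their values were seen. Some genes of the lists are counted but not reported by name here. The genes, lists and tests were chosen with earlier results of these data known. Alternatives were a −log10 q of at least 5, lists of equal length, calls covering 50% of a region, windows of 10 and 100 kb, ranking by −log10 q, the mean fold of a region's peaks, no trend, a replicate block and each library left out. Python 3.11.15 with pandas 2.3.3, NumPy 2.4.6, SciPy 1.17.1 and matplotlib 3.10.9 was used.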

Additional observations from a re-analysis of the deposited data

How the results depend on the processing

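The limma count stayed at 0 at the 9 loci in both directions under every alternative run. With the replicate block 0 of the 54 regions passed. By limma 3 of the 54 then had an unadjusted p below 0.05, and 906 of 20810 did in the genome. Same-numbered libraries deviated together with r = -0.0846, -0.014 and 0.0297, so no pairing by replicate number was seen in the ranks. With 3 libraries a group these values cannot show whether libraries were collected in pairs. The count of regions at the loci was 78 with lists of equal length, 59 within 10 kb and 205 within 100 kb, against 129. The count called in all 6 libraries was 30 when calls had to cover 50% of a region and 25 within 10 kb, against 54. Tunicamycin-only regions numbered 2 with lists of equal length (Nfkb1 region 2 and Nfkbiz region 8), 2 with 50% cover (Nfkb1 region 2 and Nfkbia region 8), and 0 to 5 with 1 library left out. The first 2 settings gave 2.56% and 1.55%, against 0.790% and 0.833% of all regions. The 5 came without DMSO replicate 1 (4.31%, against 5.77% of all regions). Without tunicamycin replicate 1 there were 4 (3.17%, against 2.23%), and without tunicamycin replicate 3 there were 2 (1.56%, against 1.54%). DMSO-only regions numbered 0 to 1 with 1 library left out. Without DMSO replicate 2 the 1 was Relb region 11 (0.806%, against 0.343% of all regions). Without DMSO replicate 3 it was Nfkbia region 10 (0.775%, against 0.929%). With a −log10 q of at least 5, 0 regions at the loci ranked above every DMSO library, against 4.61% of all regions ranked. With 1 library left out 3 to 9 did. There were 5 without DMSO replicate 1 (9.26%, against 12.4%) and 9 without DMSO replicate 3 (14.3%, against 10.3%). Regions ranked below every DMSO library numbered 2 with lists of equal length (4.65%, against 4.42% of all regions ranked). They numbered 4 when −log10 q was ranked (7.41%, against 5.20%) and 2 to 15 with 1 library left out. The 15 came without DMSO replicate 1 (27.8%, against 16.3%). Fewer libraries make such patterns easier to meet. The cause of the other shifts was not tested. Of 187 alternative values of 19 single rank differences, 3 moved by more than the spread between replicates, and 17 values at 9 regions changed sign. These were Nfkb2 9, Nfkbia 9, Nfkbiz 10 and 14, Rel 4, Rela 6 and 7, Relb 12 and Tnfaip3 8, all with overlapping groups. Depth is unknown, so a missing call sets no limit on accessibility.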
